A study of Mus musculus with 4 samples.

Results

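The mouse mitochondrial genome encodes 6 subunits of respiratory complexes III to V, and the levels of their transcripts were followed across 4 single-cell libraries of embryoid bodies. The 6 genes, mt-Cytb, mt-Co1, mt-Co2, mt-Co3, mt-Atp8 and mt-Atp6, were picked by symbol from the 32285 gene IDs that every library lists, and all 6 were found in each. The other 7 of the 13 protein-coding genes of that genome encode complex I subunits and serve here as the closest comparison.

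Embryoid bodies are spheres of cells that differentiate without added patterning, and these came from R1, a line of mouse embryonic stem cells. Each of the 4 conditions was a single 10x Genomics droplet library that counts the 3′ ends of polyadenylated RNA: 7.33 days of normoxia then 16 h of hypoxia (hypoxia, day 8), uninterrupted normoxia for 8 days (normoxia, day 8), 8 days of normoxia then 48 h of hypoxia (hypoxia, day 10), and uninterrupted normoxia for 10 days (normoxia, day 10). No genotype change or added agent is named for any group, and the sources used here do not state the oxygen level. With 1 library per condition there is no replicate check and no test: library and condition cannot be told apart, nor can the length of hypoxia and the age at which it was given.

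Mitochondrial DNA is transcribed from both strands into long precursors that run through many genes, and transfer RNAs lying between the genes are cut out to release the messengers, which are then polyadenylated. Cytochrome b (mt-Cytb) is the core of complex III, which passes electrons to cytochrome c. COX1, COX2 and COX3 (mt-Co1, mt-Co2 and mt-Co3) form the core of complex IV, which passes them on to oxygen, and ATP6 and ATP8 (mt-Atp6 and mt-Atp8) sit in the membrane part of complex V, the ATP synthase. All other subunits of these complexes are encoded in the nucleus.

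On the mm10 build (GRCm38), all 6 genes lie on the + strand without introns. mt-Co1 (ENSMUSG00000064351) is at chrM:5328-6872, mt-Co2 (ENSMUSG00000064354) at chrM:7013-7696, mt-Atp8 (ENSMUSG00000064356) at chrM:7766-7969, mt-Atp6 (ENSMUSG00000064357) at chrM:7927-8607, mt-Co3 (ENSMUSG00000064358) at chrM:8607-9390 and mt-Cytb (ENSMUSG00000064370) at chrM:14145-15288. Since the libraries read 3′ ends, the last 30 bases of each gene are shown, from the GENCODE annotation of that build, with the letters of the stop codon in capitals.
mt-Cytb, chrM:15259-15288: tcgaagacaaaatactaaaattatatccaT
mt-Co1, chrM:6843-6872: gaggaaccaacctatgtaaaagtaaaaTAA
mt-Co2, chrM:7667-7696: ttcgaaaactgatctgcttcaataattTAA
mt-Co3, chrM:9361-9390: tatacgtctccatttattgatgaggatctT
mt-Atp8, chrM:7940-7969: tatttgcctcattcattaccccaacaaTAA
mt-Atp6, chrM:8578-8607: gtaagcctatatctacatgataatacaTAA

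The genes mt-Cytb and mt-Co3 end in a lone T, which the poly(A) tail completes to a stop codon, whereas the other 4 carry the whole stop codon. The reading frames of mt-Atp8 and mt-Atp6 overlap by 43 bases, which is 21.1% of mt-Atp8 and 6.31% of mt-Atp6, and the pair is known to be carried on 1 shared messenger. The overlap is shown because a read in it belongs to both genes, with the start codon of mt-Atp6 and the stop codon of mt-Atp8 in capitals.
overlap, chrM:7927-7969: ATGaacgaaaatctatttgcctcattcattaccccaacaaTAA

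Stretches of nuclear DNA that resemble the genes, insertions of mitochondrial DNA, are annotated for 5 of the 6. The copy found for mt-Cytb, Gm11410 on chromosome 4, is the more distant, at 92.9% over 1142 bases. On chromosome 1, Gm10925 matches mt-Atp6 at 100% over 678 bases, Gm28661 matches mt-Co2 at 100% over 681 bases and Gm28437 matches mt-Co3 at 100% over 783 bases. Also on chromosome 1, Gm29216 matches the 3′ end of mt-Co1 (bases 1063 to 1545) at 99.8% over 483 bases. On chromosome 2, Gm13340 matches mt-Co1 at 97.6% over its whole length. None of the 10 copies found has an entry in the count tables used here, and whether reads matching them were counted under the mitochondrial genes is not known. No such copy was found for mt-Atp8, but only annotated transcripts were searched, so unannotated copies would be missed. The stretch of chromosome 1 between Gm10925 and Gm28661, where a copy of mt-Atp8 would lie, was not searched.

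In hypoxia and normoxia at day 8 and hypoxia and normoxia at day 10, 3342, 3160, 4614 and 2670 cells were kept, with 77940977, 84538532, 76741825 and 62221875 unique molecular identifiers (UMIs, 1 per captured RNA molecule) in all and medians of 18836, 23027, 12798 and 20306 UMIs per cell. The hypoxic library of day 10 stood apart: its 85 cytosolic ribosomal protein genes held 30.7% of UMIs, against 19.4% to 21.7% in the other 3, and its level of the nuclear RNA Malat1 was 27243 CPM (UMIs scaled to the same library total), against 9875 to 16092 CPM. These values moved with the day 10 comparison below. A scaling that leaves out the ribosomal protein genes is given there, and the part of these values in the comparison was not tested. Pairs of libraries shared 1 to 5 cell barcodes. The labels call the cells embryonic stem cells, but the pluripotency genes Pou5f1 (2.25 to 5.24 CPM) and Nanog (0.169 to 1.34 CPM) were low in every library. Egln3, a known hypoxia-induced gene, was at 62.2 CPM in hypoxia and 7.22 CPM in normoxia at day 8, and at 65.9 CPM in hypoxia and 11.7 CPM in normoxia at day 10.

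The 6 transcripts were lower in both hypoxic libraries than in the normoxic library of the same day, and the gap was wider after 48 h at day 10 than after 16 h at day 8. Together they made up 1.63% of all UMIs in hypoxia and 2.90% in normoxia at day 8, and 0.882% in hypoxia and 3.12% in normoxia at day 10. Levels are CPM summed over the cells of a library, and ratios are log2 of (CPM + 1) in hypoxia over normoxia. The intervals in parentheses are at 95% and cover counting error only. Those of ratios were computed without the added 1 CPM, which matters for mt-Atp8 alone. Without it the mt-Atp8 ratio was -1.34 at day 8 and -2.53 at day 10. In CPM, fewer RNA molecules of a gene and more of all other RNA cannot be told apart.

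Complex III has a single mitochondrially encoded subunit, cytochrome b. mt-Cytb had 1579 CPM in hypoxia and 3669 CPM in normoxia at day 8, and 798 CPM in hypoxia and 3272 CPM in normoxia at day 10. The log2 ratio was -1.22 (-1.23 to -1.21) at day 8 and -2.03 (-2.05 to -2.02) at day 10. Both hypoxic values were thus below both normoxic ones. Over all kept cells mt-Cytb was the only member whose normoxic level was lower at day 10 than at day 8, with a log2 ratio of -0.17. Among cells of 10000 to 20000 UMIs it was -0.49, and mt-Co1 (-0.04), mt-Co2 (-0.16), mt-Co3 (-0.11) and mt-Atp6 (-0.26) were lower too.

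Among the complex IV transcripts, mt-Co1, for the subunit that holds the oxygen-reducing site, was the least lowered. Its level was 4558 CPM in hypoxia and 5248 CPM in normoxia at day 8, and 2893 CPM in hypoxia and 6176 CPM in normoxia at day 10. At day 8 the log2 ratio was -0.20 (-0.21 to -0.20), which became 0.02 when the libraries were scaled by edgeR's TMM method, so its direction at day 8 depended on the scaling. At day 10 it was -1.09 (-1.10 to -1.09), or -0.59 with TMM.

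COX2 takes electrons from cytochrome c, and COX3 is the third core subunit. mt-Co2 had 3186 CPM in hypoxia and 5984 CPM in normoxia at day 8, and 1745 CPM in hypoxia and 6295 CPM in normoxia at day 10. mt-Co3 had 3902 CPM in hypoxia and 7315 CPM in normoxia at day 8, and 2042 CPM in hypoxia and 8265 CPM in normoxia at day 10. Both gave a log2 ratio of -0.91 at day 8, and at day 10 the ratios were -1.85 (-1.86 to -1.84) for mt-Co2 and -2.02 (-2.03 to -2.01) for mt-Co3. The pair therefore had nearly the same ratio at day 8 although mt-Co1, from the same complex, did not.

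The complex V transcripts had the lowest ratios of the 6 at day 10. mt-Atp6, for the proton channel subunit, had 3018 CPM in hypoxia and 6665 CPM in normoxia at day 8, and 1317 CPM in hypoxia and 7022 CPM in normoxia at day 10, with log2 ratios of -1.14 (-1.15 to -1.14) and -2.41 (-2.42 to -2.41). mt-Atp8, for the small subunit beside it, had 36.8 CPM in hypoxia and 93.3 CPM in normoxia at day 8, and 21.6 CPM in hypoxia and 125 CPM in normoxia at day 10, with log2 ratios of -1.32 (-1.40 to -1.28) and -2.48 (-2.61 to -2.45). The 2 genes lay close to each other in both comparisons, although mt-Atp8 rested on only 1659 to 7885 UMIs per library.

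**Figure D1:**
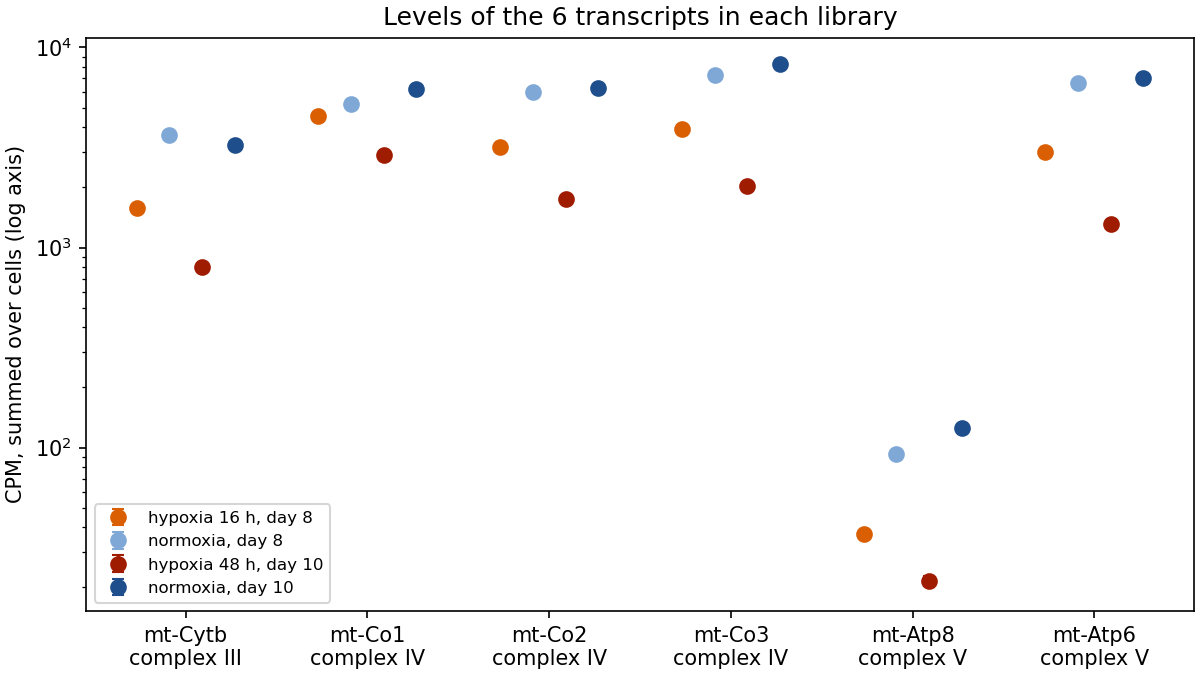
Level of each of the 6 transcripts (x axis, with its complex) in each library, in CPM on a log axis, with exact Poisson intervals at 95% that are mostly smaller than the points. For mt-Cytb both hypoxic points, at 1579 and 798 CPM, lie under the normoxic points at 3669 and 3272 CPM, whereas for mt-Co1 the day 8 points, at 4558 and 5248 CPM, are close.

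At least 1.5-fold lower in hypoxia at day 8 were 5 of the 6, all but mt-Co1, where 6.39% of the 6575 genes averaging 20 CPM or more over the libraries were that much lower. At day 10 all 6 were, against a background of 37.7% of genes, and all 6 were also at least 2-fold lower, against 21.8%. At day 8, 3 of the 6 were at least 2-fold lower (mt-Cytb, mt-Atp8 and mt-Atp6), where 0.928% of genes were. The 2-fold counts depended on the scaling. With TMM, mt-Cytb (-0.99) and mt-Atp6 (-0.92) fell short of it at day 8 and mt-Co1 (-0.59) at day 10. The same genes stayed at least 1.5-fold lower. The median log2 ratio of the 6 was -1.03 at day 8 and -2.03 at day 10, beside -0.11 and -0.46 over the 10598 genes averaging 5 CPM or more. TMM scaling moved the median of those genes by 0.22 at day 8 and 0.48 at day 10, to 0.10 and 0.01. The median of the 6 was then -0.80 and -1.52. Scaled by UMIs outside the mitochondrially encoded genes, the median of the 6 was -1.05 at day 8 and -2.07 at day 10. With the ribosomal protein genes left out of the scaling as well, it was -1.03 and -1.90.

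Between the normoxic libraries, day 10 against day 8, none of the 6 was at least 1.5-fold lower or higher, where 6.49% of genes were lower and 6.54% higher. Their log2 ratios ran from -0.17 for mt-Cytb to 0.42 for mt-Atp8, with a median of 0.13. Within the mesenchymal-like, endoderm-like and macrophage-like cells described below, none of the 6 was at least 1.5-fold lower at day 10, where 7.24%, 8.61% and 23.3% of genes were. The medians there were 0.09, 0.05 and 0.45. In macrophage-like cells (183 at day 10 and 51 at day 8) mt-Co1 (0.74) and mt-Co3 (0.69) were at least 1.5-fold higher at day 10. The share of all genes that much higher in this class was not counted.

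The 7 complex I transcripts were spread more widely at day 8, from -2.46 to -0.18 against -1.32 to -0.20 for the 6: their median log2 ratio was -1.33 at day 8 and -2.01 at day 10, with 5 of 7 and 7 of 7 at least 1.5-fold lower. mt-Nd3 had the lowest ratio of the 13 in both, -2.46 and -2.83. The highest at day 8 were mt-Nd6 at -0.18, the only protein-coding gene on the other strand, and mt-Co1 at -0.20. Along the genome the ratio did not run steadily in either direction: mt-Nd2, just before mt-Co1, was at -1.35 and mt-Co2, just after it, at -0.91 at day 8.

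**Figure D2:**
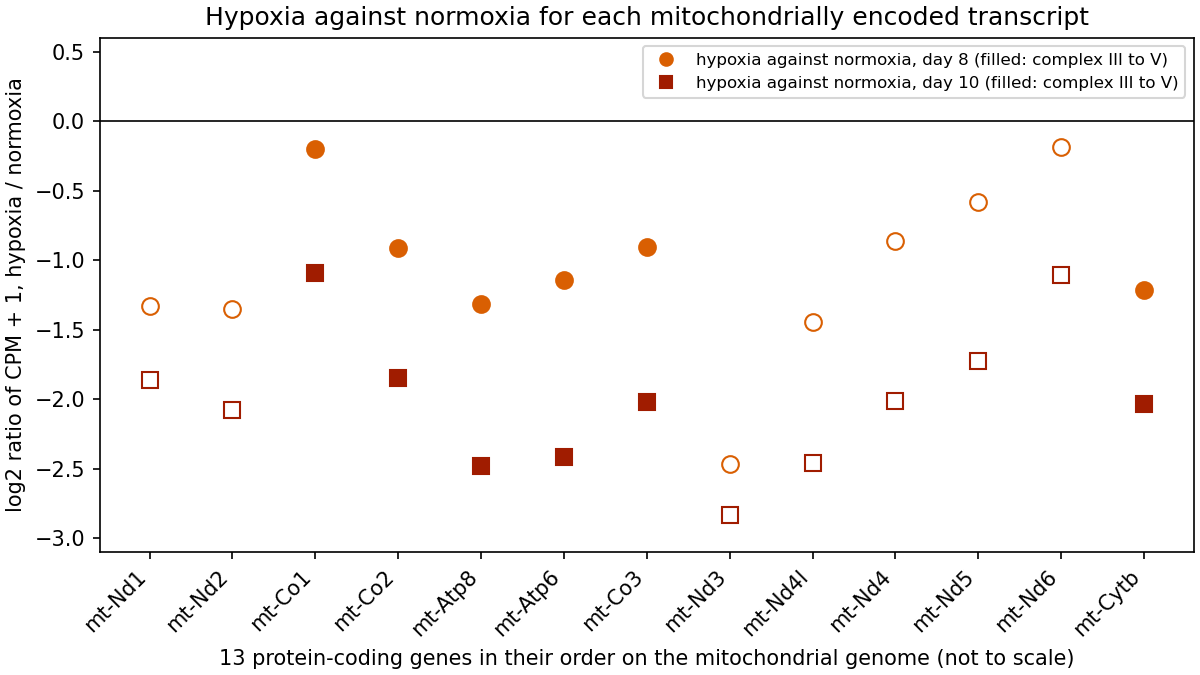
Log2 ratio of CPM + 1 in hypoxia over normoxia (y axis) for the 13 genes in their order on the mitochondrial genome (x axis, not to scale), with circles for day 8, squares for day 10 and filled marks for the 6 genes of complexes III to V. Every day 10 mark lies below its day 8 mark, and mt-Co1 stands above its neighbours, at -0.20 and -1.09.

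The make-up of the mitochondrially encoded UMIs does not depend on how libraries are scaled. Of the UMIs of the 13 genes, mt-Co1 took 22.7% (22.6 to 22.7) in hypoxia and 13.7% (13.7 to 13.8) in normoxia at day 8, and 26.1% (26.0 to 26.2) in hypoxia and 15.2% (15.2 to 15.3) in normoxia at day 10. mt-Atp6 ran the other way, with 15.02% in hypoxia and 17.4% in normoxia at day 8, and 11.9% in hypoxia and 17.3% in normoxia at day 10. mt-Co2 stayed between 15.5% and 15.9% in all 4 libraries and mt-Co3 between 18.4% and 20.4%. mt-Cytb took 7.86% in hypoxia and 9.60% in normoxia at day 8, and 7.20% in hypoxia and 8.07% in normoxia at day 10. The 6 together held 81.0% in hypoxia and 75.8% in normoxia at day 8, and 79.5% in hypoxia and 76.9% in normoxia at day 10.

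Ratios of UMIs between members show the same shift of mt-Co1 within its own complex. There were 1.43 mt-Co1 UMIs per mt-Co2 UMI in hypoxia and 0.877 in normoxia at day 8, and 1.66 in hypoxia and 0.981 in normoxia at day 10. The ratio of mt-Co2 to mt-Co3 was 0.817 in hypoxia and 0.818 in normoxia at day 8, and 0.854 in hypoxia and 0.762 in normoxia at day 10. For mt-Atp6 to mt-Co3, neighbours that share 1 base, it was 0.774 in hypoxia and 0.911 in normoxia at day 8, and 0.645 in hypoxia and 0.850 in normoxia at day 10.

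Per 1000 mt-Atp6 UMIs there were 12.2 mt-Atp8 UMIs in hypoxia and 14.0 in normoxia at day 8, and 16.4 in hypoxia and 17.8 in normoxia at day 10. Levels per kilobase of gene, in CPM per kb, put mt-Atp6 (9786), mt-Co3 (9330) and mt-Co2 (8749) above mt-Co1 (3397) and mt-Cytb (3207) and those above mt-Atp8 (457) in normoxia at day 8. In hypoxia at day 8 the order was mt-Co3 (4976), mt-Co2 (4658), mt-Atp6 (4432), mt-Co1 (2950), mt-Cytb (1380) and mt-Atp8 (181). Each RNA molecule gives 1 UMI from its 3′ end whatever its length, and mt-Atp8 lies at the 5′ end of the messenger it shares with mt-Atp6.

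**Figure D3:**
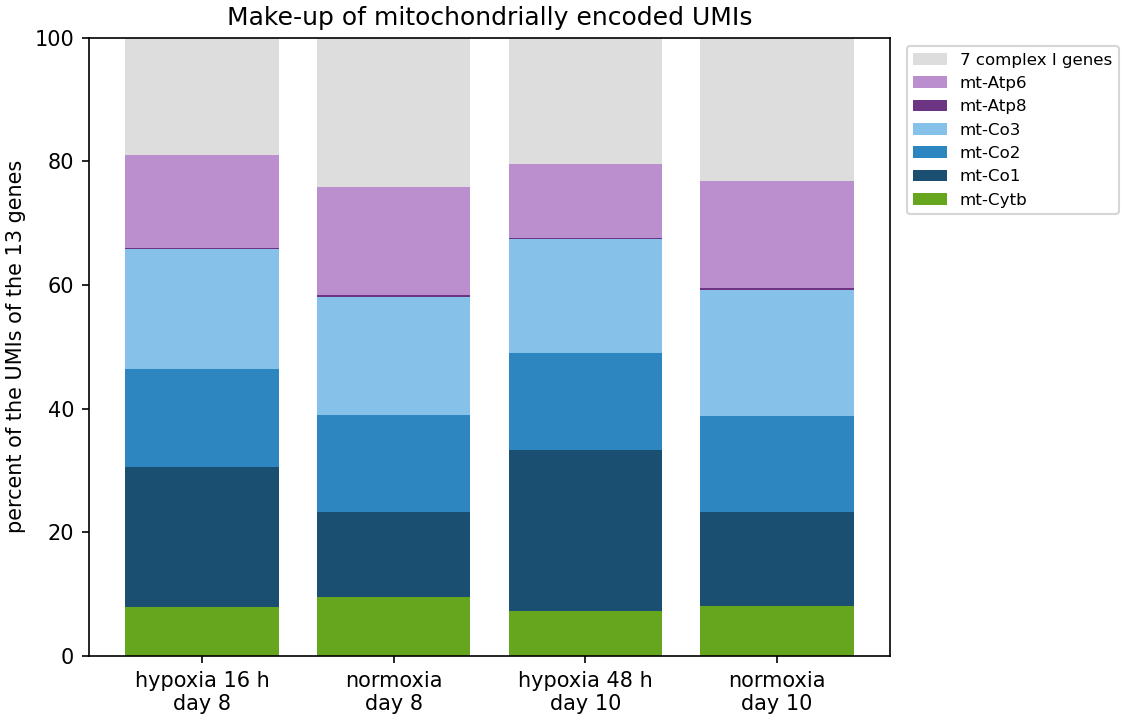
Percent of the UMIs of the 13 mitochondrially encoded protein-coding genes (y axis, from 0) held by each of the 6 genes and by the 7 complex I genes together, in stacked bars for the 4 libraries. The mt-Co1 segment is 22.7% and 26.1% in the hypoxic libraries, against 13.7% and 15.2% in the normoxic libraries of the same days.

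Most single cells of the hypoxic libraries held less of the 6 transcripts than the typical normoxic cell. The 6 transcripts held a median of 1.52% of a cell's UMIs in hypoxia and 3.004% in normoxia at day 8, and 0.449% in hypoxia and 2.99% in normoxia at day 10. The range between the 5th and 95th percentile of cells was 0.396% to 3.12% in hypoxia and 1.10% to 4.46% in normoxia at day 8, and 0.0444% to 2.71% in hypoxia and 0.393% to 5.38% in normoxia at day 10. Of hypoxic cells, 27.4% at day 8 and 45.8% at day 10 lay below the 5th percentile of normoxic cells of that day, while 5.80% and 3.97% lay above the normoxic median.

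Cells were shallower in hypoxia, so the medians were also taken with every cell thinned and within a window of depth. Thinning keeps each cell's share on average, so it cannot show whether shallower cells are different cells. With every cell thinned to 2000 UMIs the medians were 1.55% in hypoxia and 2.95% in normoxia at day 8, and 0.45% in hypoxia and 3.0% in normoxia at day 10, leaving out 60, 34, 294 and 88 shallower cells in the same order of libraries. Among cells of 10000 to 20000 UMIs, the medians were 1.49% in hypoxia and 3.31% in normoxia at day 8, and 0.449% in hypoxia and 2.82% in normoxia at day 10. The day 8 gap varied with depth. Below 5000 UMIs it ran the other way, at 0.567% in 166 hypoxic and 0.296% in 70 normoxic cells. From 5000 to 10000 UMIs the medians were 1.57% in hypoxia and 1.85% in normoxia. From 20000 to 40000 they were 1.56% and 3.01%, and from 40000 1.58% and 2.67%. At day 10 the hypoxic median was lower in every range, with the narrowest gap below 5000 UMIs (0.405% and 0.888%).

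**Figure D4:**
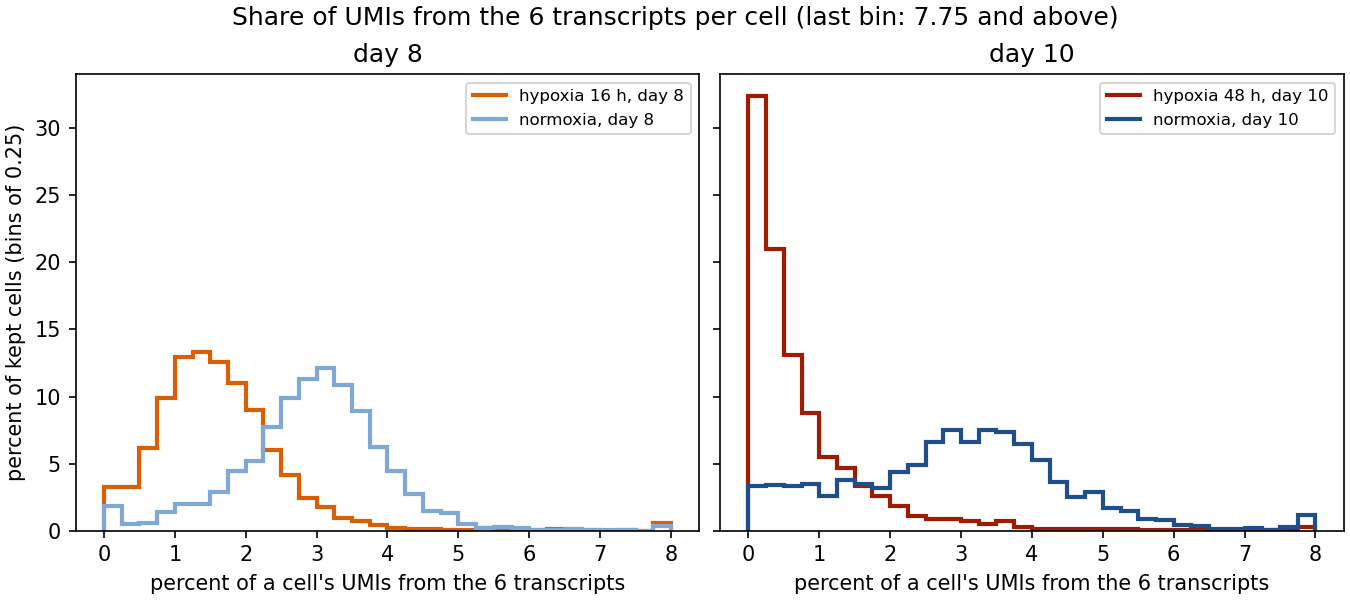
Percent of kept cells (y axis) by the percent of the cell's UMIs that came from the 6 transcripts (x axis, bins of 0.25 with all cells from 7.75 in the last), at day 8 on the left and day 10 on the right. The medians are 1.52% in hypoxia and 3.004% in normoxia at day 8, and 0.449% in hypoxia and 2.99% in normoxia at day 10, where the hypoxic cells pile up near 0.

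Counted per 2000 UMIs, the median cell held 9 mt-Co1 UMIs in hypoxia and 11 in normoxia at day 8, and 3 in hypoxia and 12 in normoxia at day 10. For mt-Co3 it held 7 in hypoxia and 15 in normoxia at day 8, and 2 in hypoxia and 16 in normoxia at day 10. For mt-Atp8 the median was 0 in every library, so this gene could be read in sums over cells only. Across cells of a library, the levels of the 5 other genes moved together, with a median Pearson r over their 10 pairs of 0.597 in hypoxia and 0.565 in normoxia at day 8, and 0.692 in hypoxia and 0.714 in normoxia at day 10. The lowest pair was mt-Co1 with mt-Cytb in each library, at 0.448 in hypoxia and 0.294 in normoxia at day 8, and 0.583 in hypoxia and 0.511 in normoxia at day 10. These r describe 2582 to 4320 thinned cells, which share their library and its free RNA.

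Cells were grouped into classes by clustering that left out mitochondrial genes, and classes were named from marker lists. The mesenchymal-like class held most cells, and in it the median log2 ratio of the 6 was -1.04 at day 8 (2851 hypoxic and 2662 normoxic cells) and -2.11 at day 10 (4201 hypoxic and 2306 normoxic cells). In this class 5 of 6 were at least 1.5-fold lower at day 8, where 7.33% of genes were, and 6 of 6 at day 10, where 35.2% were. Different clusters held the class at day 10: 99.8% of hypoxic and 1.91% of normoxic cells lay in clusters 8, 16, 19 and 20, and most normoxic cells in clusters 5, 17 and 18. The 6 held 1.30%, 0.435%, 0.257% and 0.734% of UMIs in hypoxic cells of clusters 8, 16, 19 and 20, against 2.82%, 3.39% and 2.87% in normoxic cells of clusters 5, 17 and 18. The hypoxic clusters thus differed widely among themselves, and the 20 normoxic cells that fell in cluster 19, the lowest, were also low at 0.390%.

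At day 8, 6 mesenchymal-like clusters had at least 50 cells of both libraries, and the summed share of the 6 was lower in hypoxia within each, by log2 ratios of -1.09 to -0.42. The clusters were unevenly filled at day 8 too: cluster 2 held 817 hypoxic and 25 normoxic cells, and cluster 3 held 90 hypoxic and 556 normoxic cells. The narrowest gap was in cluster 0, led by Serpinb9b and Actg2, with 2.08% in hypoxia and 2.79% in normoxia. Comparing within single clusters was chosen after the data were seen.

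Endoderm-like cells, marked by Ttr and Afp, had a median log2 ratio of -1.17 at day 8 (196 hypoxic and 240 normoxic cells), with 6 of 6 at least 1.5-fold lower where 7.16% of genes were. At day 10 it was -0.98 (63 hypoxic and 66 normoxic cells), with 5 of 6 where 33.1% of genes were. At day 10 the sum and the typical cell differed: the median hypoxic cell had 5801 UMIs and 0.207% from the 6, against 19092 UMIs and 2.20% in normoxia, while the summed shares were 1.56% in hypoxia and 2.82% in normoxia.

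In erythroid-like cells at day 8 and macrophage-like cells at day 10 the ratios were nearer to 0. Erythroid-like cells at day 8 (145 hypoxic and 106 normoxic) had a median log2 ratio of -0.36, with none of the 6 at least 1.5-fold lower where 22.2% of genes were. Only mt-Atp8 was higher in hypoxia, at 0.53, and this value rests on few UMIs. It had 51.9 CPM in hypoxia and 35.8 CPM in normoxia, of class totals of 2119667 and 1902090 UMIs. Macrophage-like cells at day 10 (116 hypoxic and 183 normoxic) had a median of -0.53, with 3 of 6 at least 1.5-fold lower where 28.5% of genes were, and mt-Co1 at 0.01. The 6 held 2.90% of UMIs in hypoxic and 3.63% in normoxic macrophage-like cells at day 10, and 2.97% and 3.32% in the median cell. Megakaryocyte-like cells were too few for a ratio. Of their UMIs the 6 held 2.35% in 34 hypoxic and 3.33% in 36 normoxic cells at day 8. At day 10 the shares were 0.997% in 44 hypoxic and 2.98% in 11 normoxic cells, a wide gap. Whether classes differ in their ratio was not tested, since each ratio rests on 1 library per condition.

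**Figure D5:**
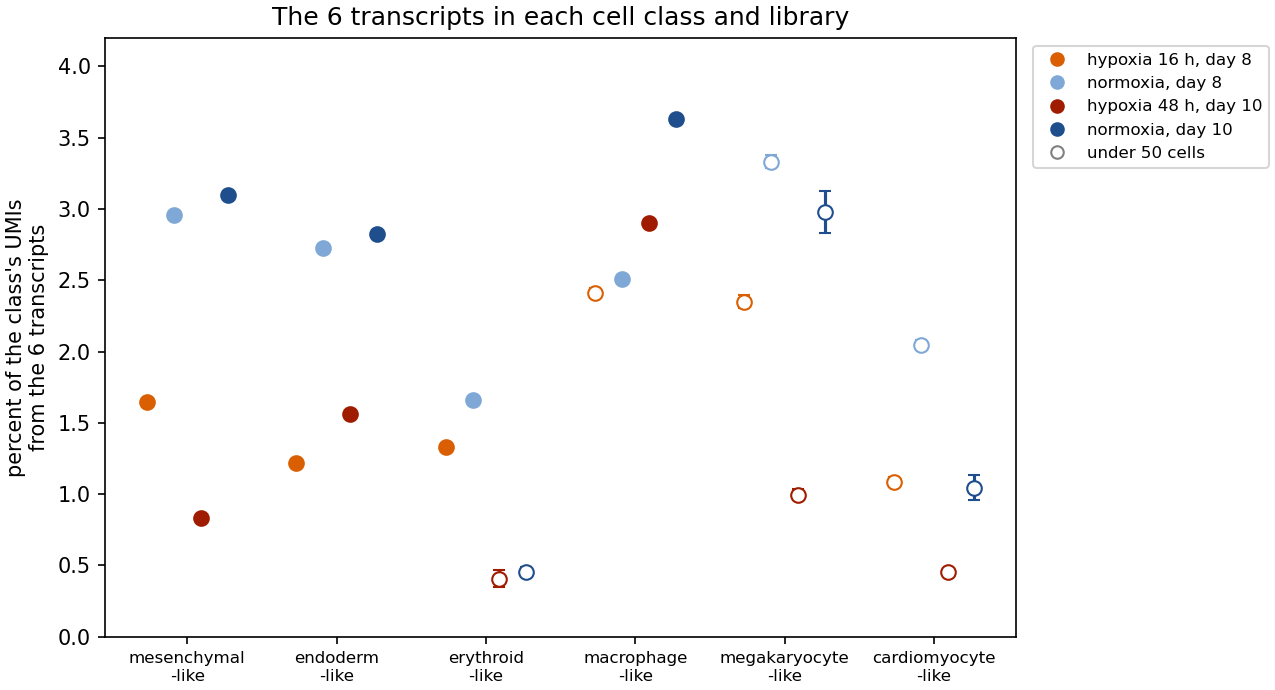
Percent of a class's summed UMIs that came from the 6 transcripts (y axis, from 0) in each cell class (x axis) and library, with exact binomial intervals at 95% and open marks for fewer than 50 cells. At day 10 mesenchymal-like cells are at 0.830% in hypoxia and 3.09% in normoxia, and macrophage-like cells at 2.90% in hypoxia and 3.63% in normoxia.

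The larger share of mt-Co1 among the 13 genes was seen in most classes. Classes come from the same libraries and share their preparation and free RNA, so they are not separate checks. Of classes with at least 10 cells in both libraries, it was higher in hypoxia in 7 of 7 at day 8 and 4 of 5 at day 10. In mesenchymal-like cells mt-Co1 took 22.8% in hypoxia and 13.6% in normoxia at day 8, and 26.2% in hypoxia and 14.8% in normoxia at day 10. In macrophage-like cells at day 10 it took 24.8% in hypoxia and 19.8% in normoxia. The exception was the erythroid-like class at day 10, with 33.2% in 12 hypoxic cells and 37.5% in 11 normoxic cells.

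Nuclear-encoded partners averaging 5 CPM or more were counted against the 10598 genes that passed the same filter, of which 10% were at least 1.5-fold lower and 4.58% higher at day 8, and 44.2% lower and 10.4% higher at day 10. For each list below, values are given for day 8 and then day 10, and its TMM medians stand beside medians of all genes of 0.10 and 0.01 on that scaling. Of 9 complex III subunits, 0 were at least 1.5-fold lower at day 8 and 5 at day 10, with median log2 ratios of -0.38 and -0.65 (-0.15 and -0.15 with TMM). Uqcr11, a small subunit, had 285 CPM in hypoxia and 408 CPM in normoxia at day 8, and 130 CPM in hypoxia and 334 CPM in normoxia at day 10. Cyc1, cytochrome c1, had log2 ratios of -0.44 at day 8 and -0.96 at day 10, Uqcr10 of -0.52 and -0.90, and Uqcrc1, a core subunit, of -0.38 and -0.83.

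Of 13 measured complex IV subunits, 1 was lower and 1 higher by 1.5-fold at day 8, and 3 were lower and 1 higher at day 10. The list's median was -0.23 at day 8 and -0.20 at day 10, or -0.01 and 0.30 with TMM, so its direction at day 10 depended on the scaling. Cox4i2, a form of subunit 4 known to be induced by low oxygen, had 33.0 CPM in hypoxia and 4.94 CPM in normoxia at day 8, and 37.2 CPM in hypoxia and 7.01 CPM in normoxia at day 10. Its common counterpart Cox4i1 had log2 ratios of only 0.10 and 0.11. Ndufa4, a complex IV subunit once assigned to complex I, had log2 ratios of -0.62 and -1.33, Cox6b2 of -0.23 and -1.09, and Cox7b of -0.31 and -0.80.

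Of 18 complex V subunits, 2 were at least 1.5-fold lower at day 8 and 6 at day 10, with medians of -0.28 and -0.32 (-0.06 and 0.18 with TMM). Atp5k, subunit e, had 259 CPM in hypoxia and 528 CPM in normoxia at day 8, and 139 CPM in hypoxia and 378 CPM in normoxia at day 10. Atp5g1, a form of the c subunit that meets ATP6 at the proton path, had log2 ratios of -0.70 and -1.39. The inhibitor Atpif1 had -0.39 and -1.15, and Atp5j2 -0.49 and -0.95.

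Genes that copy and transcribe mitochondrial DNA had a median of -0.11 at day 8 and -0.70 at day 10 (0.10 and -0.28 with TMM), with 0 and 7 of 12 at least 1.5-fold lower. Tfam, which packages mitochondrial DNA and starts its transcription, had 40.4 CPM in hypoxia and 47.5 CPM in normoxia at day 8, and 18.2 CPM in hypoxia and 48.0 CPM in normoxia at day 10. Ssbp1, the single-strand binding protein, had log2 ratios of -0.45 and -1.66, Tfb1m, an rRNA methyltransferase, of -0.10 and -1.18, and Polg2, an accessory subunit of the DNA polymerase, of 0.41 and 1.05. Polrmt, the RNA polymerase, was below the 5 CPM filter, with 4.09 CPM in hypoxia and 4.70 CPM in normoxia at day 8, and 3.95 CPM in hypoxia and 5.64 CPM in normoxia at day 10.

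RNA processing and stability genes had medians of -0.28 and -0.62 (-0.08 and -0.13 with TMM), with 1 and 10 of 19 at least 1.5-fold lower. Lrpprc and Slirp, which together stabilise mitochondrial messengers, had log2 ratios of -0.57 and -0.66 for Lrpprc and -0.39 and -0.62 for Slirp. Rexo2, an oligoribonuclease, had 117 CPM in hypoxia and 157 CPM in normoxia at day 8, and 22.7 CPM in hypoxia and 98.3 CPM in normoxia at day 10. The ratios of Prorp and Elac2, which cut out transfer RNAs, were -0.17 and -1.58 for Prorp and -0.86 and -1.38 for Elac2, and those of Fastkd2 -0.45 and -1.56.

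Translation factors had medians of -0.15 and -0.51 (0.07 and -0.07 with TMM), with 2 and 4 of 11 at least 1.5-fold lower. Mtif2, an initiation factor, had log2 ratios of -0.15 and -1.52, Tsfm, an elongation factor, of -0.65 and -1.02, Taco1, an activator of COX1 translation, of -0.68 and -1.08, and Oxa1l, which inserts these proteins into the membrane, of 0.40 and 0.81. Assembly factors of complexes III to V had medians of -0.23 and -0.69 (-0.01 and -0.22 with TMM), with 1 and 16 of 26 at least 1.5-fold lower. Pet100, a complex IV assembly factor, had 58.4 CPM in hypoxia and 104 CPM in normoxia at day 8, and 17.7 CPM in hypoxia and 75.01 CPM in normoxia at day 10. Coa3, which acts on new COX1, had log2 ratios of -0.17 and -1.99, Cox16 of -0.09 and -1.64, and Cox20, which acts on COX2, of -0.30 and -1.52.

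Biogenesis regulators had a median of -0.07 at day 8 and 0.55 at day 10 (0.13 and 1.04 with TMM), with 0 of 8 at least 1.5-fold lower or higher at day 8 and, at day 10, 4 higher and 1 lower, Ppargc1b, a coactivator, at -0.59. The related coactivator Ppargc1a was below the 5 CPM filter, with 1.98 CPM in hypoxia and 7.17 CPM in normoxia at day 10. Both were named after their values were seen. Yy1, a transcription factor, had 107 CPM in hypoxia and 79.4 CPM in normoxia at day 8, and 243 CPM in hypoxia and 113 CPM in normoxia at day 10. Myc had log2 ratios of -0.51 and 1.02, Gabpb1 of -0.15 and 0.81, and Pprc1 of -0.28 and 0.64.

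Likeness to the 6 was measured as the distance over the 4 libraries between a gene's centred log2 profile and the mean profile of the 6. Among 6562 genes outside the 13 mitochondrially encoded ones, with a median distance of 1.41, the nearest were Srsf5 (0.164), Hells (0.267), Usp1 (0.284), Lum (0.291) and Fam98b (0.305). Of the members, mt-Co3 was nearest to their mean at 0.0392 and mt-Co1 farthest at 0.837, so these 5 genes lay nearer to that mean than mt-Co1, mt-Atp6 (0.381) and mt-Atp8 (0.488) did. The complex I genes were at 0.200 (mt-Nd4) to 1.31 (mt-Nd6).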

How the data were processed

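The matrices were deposited as unnormalised UMI counts for each gene in each barcode. Cell Ranger 7.1.0 with mm10 made them, per the submitters' processing notes; the treatment of intronic reads is not given. Cells needed 500 detected genes or more, and no more than 15% of their UMIs could come from the 13 mitochondrially encoded genes. That ceiling removed 42, 65, 16 and 71 barcodes in hypoxia and normoxia at day 8 and hypoxia and normoxia at day 10. Scrublet (scanpy 1.11.5) called 3, 8, 2 and 9 doublets, where loading would give about 2.79%, 2.70%, 3.80% and 2.24%, so it did not work and doublets remain.

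UMIs were summed over cells and scaled to CPM; ratios are log2 of CPM + 1 (scipy 1.17.1 and pandas 2.3.3 in Python 3.11.15). TMM factors came from edgeR 4.0.16, used for scaling only. Intervals are exact Poisson, conditional binomial or Clopper-Pearson. No test was run, since each group has 1 library. The scripts were tested on simulated data. Cells of all libraries were clustered on 2000 variable genes, leaving out mitochondrial, ribosomal protein, hypoxia, stress and cell cycle genes (30 principal components, 15 neighbours, Leiden resolution 1), and 1 shallow cluster stayed unnamed. Clusters matching the epicardial or mesothelial list were counted as mesenchymal-like, a choice made after the data were seen. Nuclear copies were found with BLAST 2.17.0 among annotated GENCODE transcripts only (at least 90% identity over 50 bases).

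Of each of the 8 nuclear lists, up to 4 genes with the largest absolute ratio in either hypoxia comparison were named, with Cox4i1, Cox4i2, Ndufa4, Tfam, Polrmt, Lrpprc and Slirp whatever their values, and the 5 genes nearest in profile. The members and lists were chosen with earlier results of these data known.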

Additional observations from a re-analysis of the deposited data

How the results depend on the processing

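Over 13 alternatives of scaling, pseudocount, cell filter, depth and class, the median log2 ratio of the 6 ran from -1.26 to -0.80 at day 8 and from -2.12 to -1.52 at day 10. The single-gene ratios were below 0 in 78 of 78 cases at day 10 (-2.56 to -0.59) and in 77 of 78 at day 8 (-1.45 to 0.02), the exception being mt-Co1 with TMM. With age in normoxia the median ran from -0.14, in cells of 10000 to 20000 UMIs, to 0.25. Genes at least 1.5-fold lower numbered 420 at day 8, but 1063 from 5 CPM, 155 from 50 CPM, 1989 with no filter, 135 with TMM and 241 with a pseudocount of 10 CPM. At day 10 they numbered 2481, but 4685 from 5 CPM, 1096 from 50 CPM, 6793 with no filter and 1221 with TMM, and with age 427, but 869, 201, 1843 and 254 under the same changes. Thinning, which keeps each cell's share on average, gave 1.55% for 1.52% in hypoxia and 2.95% for 3.004% in normoxia at day 8. Without the mitochondrial ceiling the 6 held 77.0% of the 13 genes' UMIs in normoxia at day 10. The cause was not tested. No paired analysis was possible because each group has 1 library. Intervals cover counting error only, and differences between cultures are not measured.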
